A study of Homo sapiens with 6 samples.

Results

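The genes described here encode the core machinery of apoptosis, that is the BCL2 family, the caspases, the inhibitor of apoptosis proteins (IAPs), the factors that mitochondria release during cell death, and the death receptors with their adaptors. The 35 genes were chosen by symbol from their known roles, out of 62700 genes listed for each library rather than by a threshold on a measured value. Earlier results of these data were known at that time, so shares of this set describe it and test nothing. The samples were bulk RNA–Seq libraries of SK-Hep1, a human liver tumor cell line. The 3 control libraries are titled shControl, and their genotype label reads WT. The other 3 libraries are titled shRAB30-DT, with RAB30-DT knockdown as the genotype. *RAB30-DT* is a long noncoding RNA transcribed divergently from *RAB30*. The study's methods describe lentiviral short hairpins with puromycin selection, so each group was a selected pool rather than a clone, and the labels do not say which hairpin a library carried. No treatment, dose or time was given for either group, and no agent that triggers cell death was part of the labels. Nothing states that the 3 libraries of a group came from separate cultures, so the p-values measure only the spread between these samples, which may be technical.

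In the mitochondrial pathway, the effectors BAX, BAK1 and BOK open the outer mitochondrial membrane, anti-apoptotic relatives such as BCL2, BCL2L1 and MCL1 hold them in check, and BH3-only proteins tip this balance toward death. Cytochrome c that leaks from the mitochondrion assembles with APAF1 into the apoptosome, which activates caspase-9, while DIABLO and HTRA2 leave the same compartment and relieve the block that IAPs put on caspases. In the extrinsic pathway, FAS and the TRAIL receptors recruit FADD and caspase-8, CFLAR competes for the same complex, and BID carries the signal from there to mitochondria. Most of these proteins are also controlled after transcription, by cleavage, phosphorylation, degradation or movement between compartments, none of which mRNA levels measure.

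Levels are given in TPM, the abundance of a gene's transcripts corrected for their length and scaled to the same total in every library. The targeted transcript *RAB30-DT* was measured at 18.16, 11.51 and 13.91 TPM in the control libraries and at 11.94, 10.85 and 6.5 TPM in the knockdown libraries. The groups overlapped, the log2 fold change was −0.55 with an adjusted p of 0.355 (limma), and an exact two-sided permutation test gave p = 0.2, where 0.1 is the smallest it allows. The libraries are therefore called control and knockdown by their labels. The study separately reported a qPCR check of the *RAB30-DT* knockdown in SK-Hep-1 cells. Of the mesenchymal markers, *VIM* lay between 3793 and 4784 TPM, *THY1* between 76.02 and 148.02 TPM and *FN1* between 12.83 and 22.83 TPM. *CDH2* lay between 1.77 and 5.54 TPM and *COL1A1* between 0.59 and 2.41 TPM. Every knockdown library was higher for *VIM* and lower for *THY1*, and neither passed the test. Of the hepatocyte markers, *ALB*, *TTR* and *HNF4A* were listed at 0 in all 6 libraries, *APOA1* was above 0 in knockdown replicate 1 alone (0.46 TPM), and *AFP* lay between 0.41 and 1.63 TPM. Of the endothelial markers, *PECAM1*, *KDR*, *CDH5* and *TEK* did not pass 0.07 TPM in any library, and *VWF* was at 0.07 to 0.13 TPM in controls and 0.3 to 0.36 TPM in knockdown libraries, without overlap. The leukocyte genes *PTPRC* and *CD3E* were listed at 0, whereas *CD68*, a lysosomal gene of macrophages and many tumor lines, was at 28.41 to 66.76 TPM in controls and 106.52 to 129.11 TPM in knockdown libraries. In each library, the deviation of each gene from its mean over the 6 libraries was set against transcript GC content. Spearman's rho across genes was −0.607, 0.297 and 0.489 in control replicates 1, 2 and 3. It was −0.523, 0.022 and 0.33 in knockdown replicates 1, 2 and 3.

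Of the 35 genes, 32 had a mean of at least 1 TPM and were tested. A single gene, *DIABLO*, passed the test and fell in the knockdown libraries. That is 1 of 32 (3.12%), against 1.04% of all 14020 genes tested in either direction and 0.67% in the lower direction. Every knockdown library lay above every control library for *BCL2L1*, *BCL2L2*, *PMAIP1*, *TNFRSF10B* and *TNFRSF10D*, and below for *BID*, *CASP2*, *CASP10*, *CYCS*, *DIABLO* and *CFLAR*. These 11 genes are 34.4% of the 32, and 23.3% of all genes tested had no overlap between groups (9.89% higher and 13.4% lower). An unadjusted p under 0.05 was reached by 10 of the 32 genes (31.2%), 5 in each direction, beside 16.8% of all genes. The log2 fold change was above 0 for 13 genes and below 0 for 19, with a median of −0.14, where the median over all genes tested was −0.04. *CASP10* passed the filter only through its control values. Because a bulk library averages over its cells, fewer cells of a kind and less RNA per cell cannot be told apart in any of these values.

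**Figure D1:**
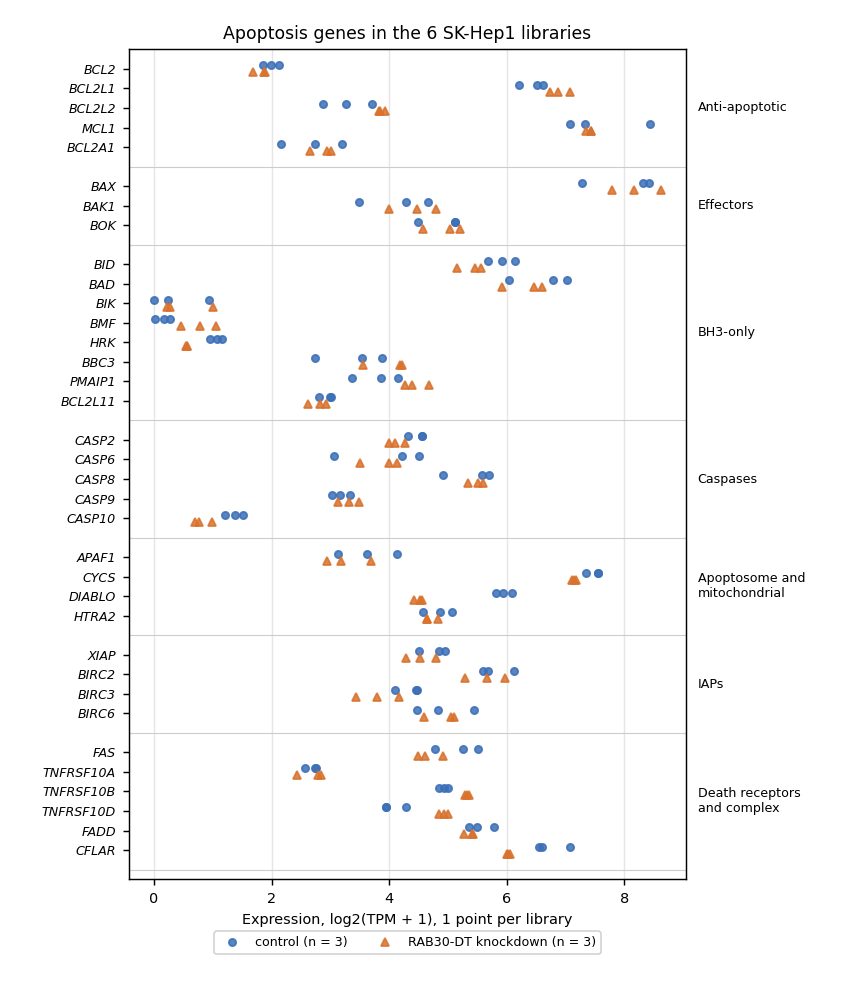
Expression of the 35 apoptosis genes on the log2(TPM + 1) scale, with 1 point per library (circles, 3 control; triangles, 3 knockdown), grouped by role. *BAX*, *MCL1* and *CYCS* sit at the right end, *BIK*, *BMF* and *HRK* near 0, and the groups separate most widely for *DIABLO*.

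**Figure D2:**
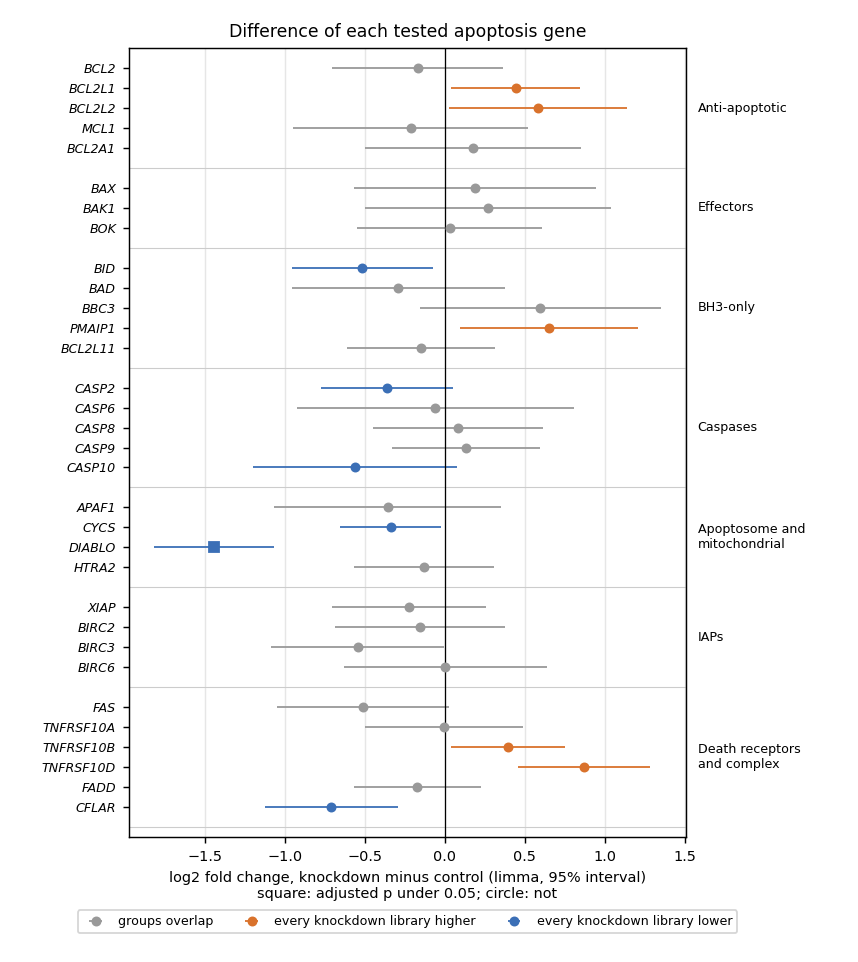
Log2 fold change (knockdown minus control, log2(TPM + 1) scale) of the 32 tested genes with the 95% interval of the limma fit. The square marks *DIABLO*, the gene with an adjusted p under 0.05, and colors mark the 11 genes whose groups do not overlap.

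Among the factors released by mitochondria, *DIABLO* (ENSG00000184047, chr12:122207663-122227456 in hg38, minus strand) encodes the IAP antagonist also called Smac. It was measured at 67.23, 55.40 and 60.41 TPM in the control libraries and at 20.49, 22.63 and 22.08 TPM in the knockdown libraries. The groups were far apart, with 55.4 TPM as the lowest control value and 22.63 TPM as the highest knockdown value. The mean was 61.0 ± 5.94 TPM in controls and 21.7 ± 1.11 TPM in knockdown libraries (SD, n = 3 each). This corresponded to a log2 fold change of −1.44 (SE 0.163, 95% interval −1.82 to −1.07, adjusted p = 0.0153, limma), or 0.367 of the control level. The log2 fold change lay between −1.51 and −1.37 whichever library was left out. The call was kept without control replicate 1 or 3 and lost without control replicate 2 (adjusted p = 0.0669) or without knockdown replicate 1, 2 or 3 (0.0816, 0.0856 and 0.0904 in turn). Except for *B3GNT4* (mean 0.917 TPM) and 2 unnamed genes on its own strand at 1.01 TPM or less, no annotated gene with signal overlaps its exons. Only overlaps of exon with exon were searched.

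The other 3 genes of this class had log2 fold changes below 0 without passing the test. *CYCS*, cytochrome c, was at 187.32, 185.59 and 161.72 TPM in controls and 144.38, 137.13 and 139.73 TPM in knockdown libraries. All knockdown values were the lower ones, with a log2 fold change of −0.34 (SE 0.137, adjusted p = 0.268, limma). *CYCS* has many processed pseudogenes of near-identical sequence, so its level depends on how shared reads were assigned. *APAF1*, the apoptosome scaffold, ranged from 7.76 to 16.58 TPM in controls and from 6.7 to 11.92 TPM in knockdown libraries, with a log2 fold change of −0.36 (adjusted p = 0.593). *HTRA2*, a mitochondrial serine protease that binds IAPs, ranged from 22.79 to 32.55 TPM and from 23.97 to 27.58 TPM, with a log2 fold change of −0.13 (adjusted p = 0.775). The summed level of the 4 genes was 293.9, 280.5 and 262.4 TPM in controls and 200.8, 191.8 and 196.1 TPM in knockdown libraries, the groups being apart. That sum was formed after the values were seen and is mostly *CYCS* and *DIABLO*, each of which was already apart.

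All 4 IAP genes had overlapping groups, and none passed the test. *BIRC3*, the NF-κB-induced ubiquitin ligase cIAP2, was at 21.10, 16.13 and 20.96 TPM in controls and at 16.87, 12.86 and 9.83 TPM in knockdown libraries. Only knockdown replicate 1 lay within the control range, and the log2 fold change was −0.54 (SE 0.235, 95% interval −1.08 to −0.0035, adjusted p = 0.296, limma). *BIRC2*, its close paralog cIAP1, was the most abundant of the class, at 68.63, 47.09 and 50.02 TPM in controls and 61.37, 49.75 and 37.93 TPM in knockdown libraries (log2 fold change −0.16, adjusted p = 0.773). The 2 genes lie on the plus strand of chromosome 11, 7808 bases apart. *XIAP*, the direct caspase inhibitor that DIABLO displaces, ranged from 21.7 to 29.84 TPM and from 18.58 to 26.81 TPM (−0.22, adjusted p = 0.622). *BIRC6*, a very large ubiquitin-conjugating IAP, had a log2 fold change of 0.0043 with a 95% interval from −0.63 to 0.64.

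Because *DIABLO* moved and the IAPs did not pass the test, its level was set against that of its partners within each library, a choice made after the values were seen. The ratio of *DIABLO* to *XIAP* in TPM was 2.25, 2.01 and 2.78 in controls and 0.764, 1.02 and 1.19 in knockdown libraries. The ratio of *DIABLO* to *HTRA2* was 2.95, 1.96 and 1.86 in controls and 0.853, 0.944 and 0.801 in knockdown libraries. Neither ratio overlapped between the groups. *DIABLO* was already apart by itself, so these ratios restate its difference and add no separate evidence.

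Of the 6 genes for death receptors and their complex, 3 (50.0%, beside 23.3% of all genes) had groups that did not overlap. None passed the test. *TNFRSF10D*, a decoy receptor that binds TRAIL with a truncated death domain, was at 14.33, 14.41 and 18.44 TPM in controls and 29.41, 27.92 and 30.89 TPM in knockdown libraries. Every knockdown library was well above the highest control. The means were 15.7 ± 2.35 and 29.4 ± 1.49 TPM (SD, n = 3 each), and the log2 fold change was 0.87 (SE 0.179, 95% interval 0.46 to 1.28, adjusted p = 0.0711, limma). The adjusted p was 0.0469 without control replicate 3 and 0.0275 with the GC trend removed, but 0.122 with no filter and 0.228 to 0.3 without control replicate 2 or without any 1 of the knockdown replicates.

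*TNFRSF10B*, the TRAIL receptor DR5 that carries a full death domain, was at 31.10, 29.48 and 27.78 TPM in controls and 38.17, 39.94 and 38.99 TPM in knockdown libraries. The knockdown libraries were all higher and close to each other, with a log2 fold change of 0.40 (SE 0.155, adjusted p = 0.254, limma). *TNFRSF10A*, the TRAIL receptor DR4, showed no such separation, at 4.95 to 5.78 TPM and 4.42 to 6.16 TPM (log2 fold change −0.0045, 95% interval −0.50 to 0.49). These genes sit in 1 cluster on the minus strand of chromosome 8, with 66557 bases between *TNFRSF10B* and *TNFRSF10D* and 26425 bases between *TNFRSF10D* and *TNFRSF10A*. The TPM ratio of *TNFRSF10D* to *TNFRSF10B*, also chosen after seeing the values, was 0.461, 0.489 and 0.664 in controls and 0.771, 0.699 and 0.792 in knockdown libraries.

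*CFLAR* (c-FLIP, the catalytically inactive relative of caspase-8, chr2:201116154-201176687, plus strand) was the most abundant gene in the class of death receptors and their complex. It was at 92.28, 95.60 and 133.53 TPM in controls and 65.22, 64.19 and 63.16 TPM in knockdown libraries. The knockdown values lay close together and below all controls, of which replicate 3 stood highest. The means were 107 ± 22.9 and 64.2 ± 1.03 TPM (SD, n = 3 each), with a log2 fold change of −0.71 (SE 0.182, 95% interval −1.13 to −0.29, adjusted p = 0.112, limma). An antisense gene, *CFLAR-AS1*, overlaps it at 3.53 to 4.99 TPM in controls and 0.6 to 2.88 TPM in knockdown libraries. The ratio of *CFLAR* to *CASP8* was 1.82, 2.04 and 4.58 in controls and 1.38, 1.45 and 1.6 in knockdown libraries.

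*FAS*, the receptor of FAS ligand, was at 44.67, 26.32 and 36.95 TPM in controls and 29.05, 23.35 and 21.40 TPM in knockdown libraries. Knockdown replicate 1 lay within the control range, and the log2 fold change was −0.51 (SE 0.233, adjusted p = 0.32, limma). The span of *FAS* overlaps *ACTA2* on the other strand, which was at 8.07 to 10.05 TPM in controls and 39.19 to 43.14 TPM in knockdown libraries. Reads of that overlap cannot be told apart if strand was not used. *STAMBPL1* overlaps *FAS* on the same strand, where strand cannot tell reads apart. It was at 24.7 to 36.83 TPM in controls and 19.79 to 23.87 TPM in knockdown libraries. *FADD*, the adaptor between receptor and caspase-8, ranged from 40.19 to 53.7 TPM and from 37.78 to 41.83 TPM (−0.17, adjusted p = 0.653).

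None of the 5 caspase genes passed the test, and 2 (40.0%, beside 23.3% of all genes) had groups apart. Neither of these reached an unadjusted p under 0.05 (0.0772 for *CASP2* and 0.0769 for *CASP10*, limma). *CASP10* also passed the filter only through its control values, so its place in this share partly follows from the filter. *CASP2*, an initiator caspase of the PIDDosome, was at 22.63, 22.55 and 19.00 TPM in controls and 16.04, 18.33 and 14.89 TPM in knockdown libraries. The gap between the groups was small, and the log2 fold change was −0.36 (SE 0.179, adjusted p = 0.352, limma). *CASP10*, the close relative of caspase-8, was low throughout, at 1.87, 1.61 and 1.32 TPM and 0.62, 0.69 and 0.97 TPM. Its log2 fold change was −0.56 (adjusted p = 0.351) with the pseudocount of 1 and −0.99 (adjusted p = 0.368) with a pseudocount of 0.1.

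*CASP8*, the initiator at death receptors and the most abundant caspase of this set, was at 50.70, 46.85 and 29.18 TPM in controls and 47.17, 44.29 and 39.45 TPM in knockdown libraries. The groups overlapped, with a log2 fold change of 0.08 (adjusted p = 0.893, limma). *CFLAR*, *CASP10* and *CASP8* lie next to each other in that order on the plus strand of chromosome 2, separated by 6185 and 4015 bases. Only the first of these neighbors and *CASP10* had lower values in every knockdown library. *CASP9*, the caspase of the apoptosome, ranged from 7.17 to 9.06 TPM and from 7.71 to 10.26 TPM (0.13, adjusted p = 0.783), and *CASP6*, an executioner caspase, from 7.36 to 21.85 TPM and from 10.27 to 16.51 TPM (−0.06, adjusted p = 0.955).

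**Figure D3:**
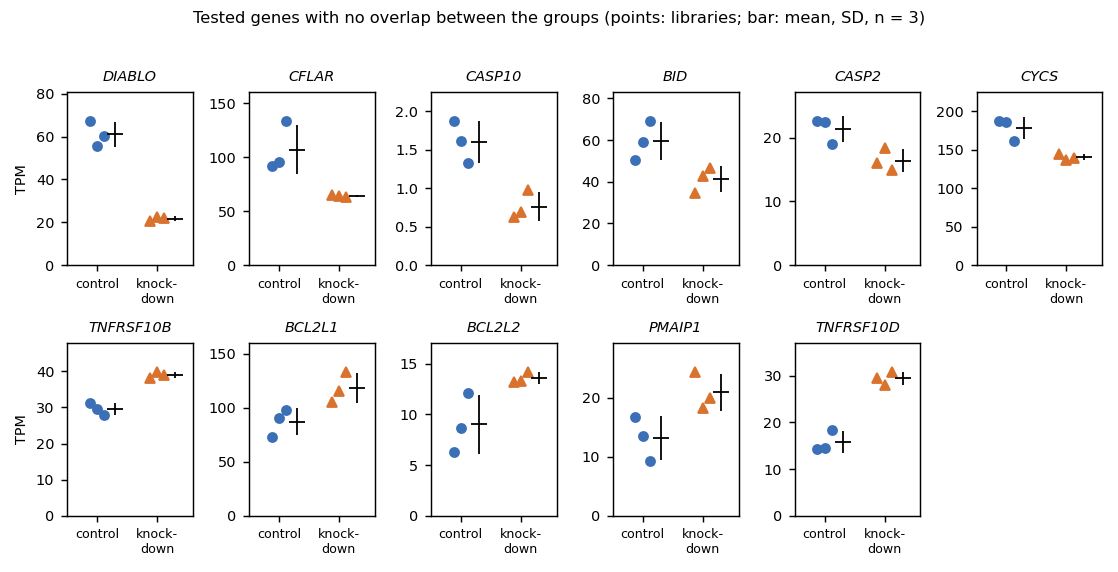
TPM per library of the 11 tested genes whose groups do not overlap (circles, control; triangles, knockdown), each axis starting at 0, with the mean and SD of 3 libraries beside the points. *DIABLO* goes from 61.0 to 21.7 TPM and *TNFRSF10D* from 15.7 to 29.4 TPM, and the other 9 genes differ less on the log2 scale.

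In the anti-apoptotic class, *BCL2L1* and *BCL2L2* were higher in every knockdown library, and none of the 5 genes passed the test. *BCL2L1*, which encodes BCL-XL, was at 72.77, 90.58 and 97.31 TPM in controls and 105.44, 115.69 and 133.32 TPM in knockdown libraries. The lowest knockdown value lay above the highest control value, with means of 86.9 ± 12.7 and 118 ± 14.1 TPM (SD, n = 3 each) and a log2 fold change of 0.44 (SE 0.175, 95% interval 0.042 to 0.84, adjusted p = 0.255, limma). *BCL2L2*, encoding BCL-W, was at 6.30, 8.65 and 12.11 TPM in controls and 13.21, 13.29 and 14.24 TPM in knockdown libraries. The controls spread widely and the knockdown libraries did not (log2 fold change 0.58, SE 0.243, adjusted p = 0.279). A readthrough gene, *BCL2L2-PABPN1*, overlaps it on the same strand. It was at 20.69, 7.03 and 15.13 TPM in controls and 14.91, 21.28 and 10.74 TPM in knockdown libraries, with groups that overlapped. The separation of *BCL2L2* thus depends on how reads shared with that gene were assigned.

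*MCL1*, a short-lived survival protein whose transcript was the most abundant of the class, was at 134.10, 159.10 and 346.66 TPM in controls and 172.36, 160.77 and 170.72 TPM in knockdown libraries. Control replicate 3 stood far above the other 5 libraries. The log2 fold change was −0.21 (adjusted p = 0.777, limma) and turned to 0.20 without that library. *BCL2*, the family's founding member, was low, at 2.61 to 3.34 TPM and 2.21 to 2.72 TPM (−0.17, adjusted p = 0.753), and *BCL2A1*, an NF-κB target, was at 3.44 to 8.13 TPM and 5.32 to 7.02 TPM (0.18, adjusted p = 0.804). *MCL1* made up 59.7%, 59.6% and 75.0% of the summed TPM of the 5 genes in controls and 57.4%, 54.0% and 52.1% in knockdown libraries. For *BCL2L1* the share was 32.4%, 33.9% and 21.1%, against 35.1%, 38.8% and 40.7%. Both shares separated the groups, but they are parts of the same sum and *BCL2L1* was already apart by itself.

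For the effectors, the spread within groups was wider than the difference between them. *BAX* was at 154.38, 318.75 and 340.44 TPM in controls and 221.06, 286.12 and 393.07 TPM in knockdown libraries. Replicate 1 was the lowest library of both groups, and the log2 fold change was 0.19 with a 95% interval from −0.57 to 0.94 (adjusted p = 0.814, limma). *BAK1* ranged from 10.22 to 24.31 TPM and from 14.86 to 26.85 TPM (0.27, adjusted p = 0.724), and *BOK*, the relative least dependent on BH3-only proteins, from 21.36 to 33.93 TPM and from 22.79 to 35.87 TPM (0.03, adjusted p = 0.964). The TPM ratio of *BAX* to *BAK1* stayed between 13.1 and 18.3 over the 6 libraries.

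Of the 8 BH3-only genes, 5 were tested and none passed. *PMAIP1*, which encodes NOXA, the BH3-only partner of MCL1 and a p53 target, was at 16.72, 13.48 and 9.35 TPM in controls and 24.45, 18.24 and 20.04 TPM in knockdown libraries. All knockdown values were higher (log2 fold change 0.65, SE 0.242, 95% interval 0.095 to 1.21, adjusted p = 0.231, limma). *BID*, the caspase-8 substrate that joins the extrinsic to the mitochondrial pathway, was at 50.50, 59.11 and 69.17 TPM in controls and 34.66, 42.83 and 46.46 TPM in knockdown libraries. It thus lay lower in every knockdown library, with a log2 fold change of −0.52 (SE 0.192, 95% interval −0.96 to −0.076, adjusted p = 0.231).

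*BBC3*, which encodes PUMA, another p53 target, was at 5.65, 13.64 and 10.61 TPM in controls and 10.68, 17.16 and 17.49 TPM in knockdown libraries. Knockdown replicate 1 fell within the control range (log2 fold change 0.60, SE 0.328, adjusted p = 0.4, limma). *BAD*, whose activity growth factor kinases switch off, was the most abundant of the class, at 64.74, 128.84 and 109.37 TPM and 59.18, 87.38 and 95.95 TPM (−0.29, adjusted p = 0.647). *BCL2L11*, encoding BIM, ranged from 6.02 to 7.02 TPM and from 5.12 to 6.57 TPM (−0.15, adjusted p = 0.75).

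The 3 genes below the filter were all BH3-only. *HRK* was at 1.24, 0.93 and 1.10 TPM in controls and 0.48, 0.45 and 0.48 TPM in knockdown libraries, and *BMF* at 0.01, 0.21 and 0.13 TPM and 0.38, 0.71 and 1.08 TPM. At these levels a few reads can set a value. Fitted without a filter, their log2 fold changes were −0.51 (SE 0.147, adjusted p = 0.281, limma) and 0.61 (SE 0.173, adjusted p = 0.27). *BIK* did not pass 1.01 TPM in any library (0.11, adjusted p = 0.894).

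Replicate 1 set itself apart for many of these genes, along GC content. Of the 8 tested genes with a transcript GC content of at least 55%, 7 had replicate 1 as the lowest library in both groups, namely *BCL2L1*, *BAX*, *BAK1*, *BOK*, *BAD*, *BBC3* and *FADD*, the exception being *HTRA2*. Of the 13 with a GC content under 45%, 9 had replicate 1 as the highest in both groups, among them *FAS*, *PMAIP1*, *XIAP*, *BIRC2*, *BIRC3* and *CASP8*. *DIABLO* (49.3% GC) and *TNFRSF10D* (47.1%) lie between these limits, and *CFLAR* (44.1%) is among the 13. With each library's GC trend removed, 6 of the 32 genes passed the test, beside 8.86% of all genes. *BCL2L1*, *BBC3*, *PMAIP1*, *TNFRSF10B* and *TNFRSF10D* were then called higher and *DIABLO* lower. Other settings that moved the count of calls also moved the background, with 9 of the 32 genes called beside 23% of all genes when libraries were weighted by their noise, 3 beside 6.14% with the replicate number as a term, and 5 beside 7.66% with that term and the GC trend removed.

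**Figure D4:**
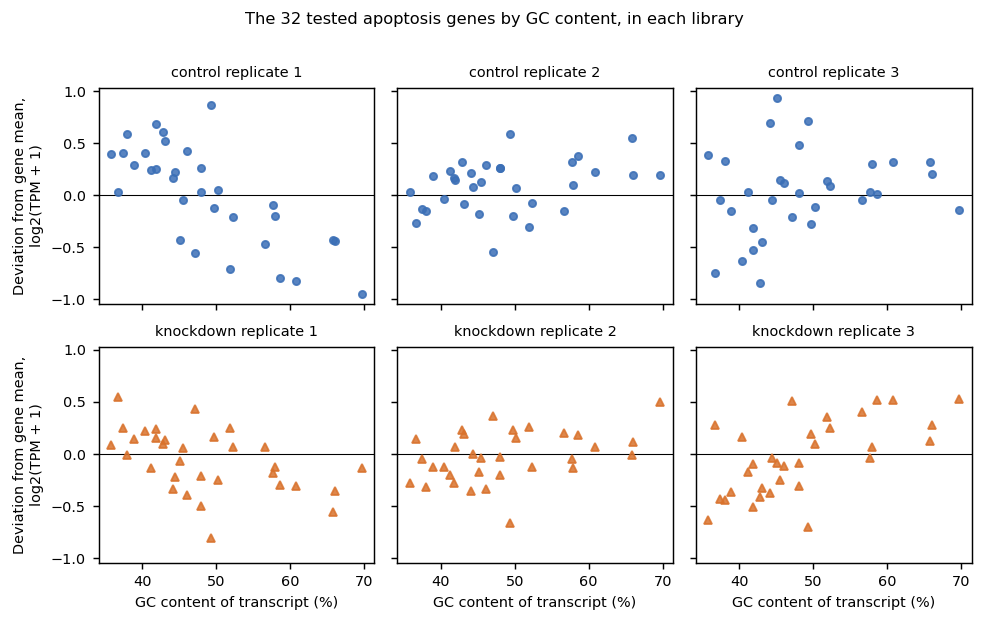
Deviation of each of the 32 tested genes from its mean over the 6 libraries (log2(TPM + 1)) against the GC content of its transcript in percent, with 1 panel per library. Points slope downward in replicate 1 of both groups and upward in knockdown replicate 3.

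An earlier analysis of these same libraries had pointed to the 7-mer GAGTGAA in 3′ UTRs, so its presence in the apoptosis genes is given as a description without a test. It was searched on the sense strand of the 3′ UTR of each gene's canonical transcript (GENCODE, hg38). Of the 32 tested genes, 5 (15.6%) held it, compared with 1446 (12.4%) of all tested protein-coding genes. The 5 were *DIABLO*, *CFLAR*, *CYCS*, *CASP6* and *BCL2*, and in the sense-strand sequences that follow the 7-mer is in capitals.
DIABLO, chr12:122207845-122207867, minus strand: aggccaagGAGTGAAaaacctat
CFLAR, chr2:201169648-201169670, plus strand: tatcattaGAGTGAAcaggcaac
CYCS, chr7:25120107-25120129, minus strand: tgggtgacGAGTGAAactgtctc
CASP6, chr4:109688997-109689019, minus strand: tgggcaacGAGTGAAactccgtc
BCL2, chr18:63125015-63125037, minus strand: gatctattGAGTGAAcagaattg
*RAB30-DT* itself holds the same letters at 2 places, in 11 of its 19 annotated transcripts.
RAB30-DT, chr11:83072059-83072081, plus strand: cgcgcccaGAGTGAAggagcaaa
RAB30-DT, chr11:83073464-83073486, plus strand: tatgttagGAGTGAAtaaaatta

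The log2 fold change was below 0 in all 5 of these genes, with a median of −0.34, and 3 of them (60.0%) were lower in every knockdown library. Among the 27 tested genes without the 7-mer the median was −0.0045, 14 were below 0, and 3 (11.1%; *BID*, *CASP2* and *CASP10*) were lower in every knockdown library. Over all tested coding genes, 20.3% of those with the 7-mer and 14.1% of the 10224 without it were lower without overlap. Because the 7-mer was picked on these libraries, these lower values restate that choice and support nothing further. The site lies at base 522 of a 713-base 3′ UTR in *DIABLO* and at base 5683 of 12714 bases in *CFLAR*, where gene-level TPM cannot tell which 3′ ends the transcripts of this cell line use.

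Around the core machinery, 63 further genes were listed in 5 groups by role, of which 51 were tested. Of these, 4 passed the test and all 4 rose (7.84%, beside 0.371% of all genes called higher). There was no overlap between groups for 21 genes (41.2%, beside 23.3% of all genes), 14 of them higher (beside 9.89% of all genes). The lists were written with earlier results of these data known, so these shares describe the lists and test nothing. Leaving out 1 library left between 1 and 9 of the 51 called, 9 without control replicate 1, 2 without control replicate 3 and 1 without any of the other 4 libraries.

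Among the more distant BCL2 homologues and their partners at the outer mitochondrial membrane, 2 of 11 tested genes rose (18.2%, beside 0.371% of all genes called higher). *BNIP3*, a hypoxia-induced mitophagy receptor, was at 108.33, 97.93 and 100.68 TPM in controls and 493.87, 439.25 and 348.70 TPM in knockdown libraries. The groups were far apart, with means of 102 ± 5.39 and 427 ± 73.3 TPM (SD, n = 3 each) and a log2 fold change of 2.04 (SE 0.164, adjusted p = 0.00444, limma). Its homologue *BNIP3L* (NIX) was at 67.72, 61.28 and 77.66 TPM and 178.80, 179.02 and 153.26 TPM, again without overlap, at 2.46 times the control level on the TPM + 1 scale (SE 0.159 on the log2 scale, adjusted p = 0.024).

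Of 16 stress-induced p53 targets, 2 rose (12.5%, beside 0.371% of all genes called higher). Log2 fold changes were above 0 for 14, as for 6489 of all 14020 genes, with a median of 0.68. In every knockdown library, 9 (56.2%, beside 9.89% of all genes) were higher than in all controls. *CDKN1A*, the cell cycle inhibitor p21, was at 73.92, 122.13 and 87.28 TPM in controls and 232.09, 282.80 and 402.34 TPM in knockdown libraries (log2 fold change 1.68, SE 0.254, adjusted p = 0.0293, limma). *GDF15*, a stress-induced cytokine, was at 31.71, 59.57 and 34.48 TPM and 109.16, 125.40 and 157.25 TPM (log2 fold change 1.66, SE 0.263, adjusted p = 0.0351). Both had knockdown values above all controls. Some core genes are also known p53 targets. Those given here were not a list fixed in advance, and others may belong. None passed, and their log2 fold changes went both ways. The values were 0.65 for *PMAIP1*, 0.60 for *BBC3*, 0.40 for *TNFRSF10B*, 0.19 for *BAX*, −0.36 for *APAF1*, −0.51 for *FAS* and −0.52 for *BID*. With the GC trend removed, *BBC3*, *PMAIP1* and *TNFRSF10B* were called higher (adjusted p = 0.0268, 0.0347 and 0.0497, limma). The others named were not called there, and 8.86% of all genes were.

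None of the 8 caspase substrates passed the test, but 7 had log2 fold changes below 0, as had 7531 of all 14020 genes, and 4 (50.0%, beside 13.4% of all genes) were lower in every knockdown library, with a median of −0.39. *PARP1*, the DNA repair enzyme cleaved during apoptosis, was at 135.40, 146.97 and 167.55 TPM in controls and 93.75, 92.62 and 92.08 TPM in knockdown libraries (log2 fold change −0.68, SE 0.146, adjusted p = 0.0778, limma). None of the 5 tested genes among other caspases and IAPs passed, the largest value being that of *CASP4*, an inflammatory caspase, at 62.38, 53.95 and 35.75 TPM and 83.10, 76.18 and 73.79 TPM (0.64, adjusted p = 0.201). None of the 11 tested genes among other death receptors and their adaptors passed either. The ligand genes of that list were below the filter, with *TNFSF10* and *FASLG*, which encode TRAIL and FAS ligand, listed at 0 in all 6 libraries and *TNF* at 0.06 TPM or less, and *TRAF1*, which passed the filter only through its knockdown values, was at 0.68, 1.21 and 0.85 TPM and 2.02, 2.22 and 2.03 TPM (0.70, adjusted p = 0.241).

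**Figure D5:**
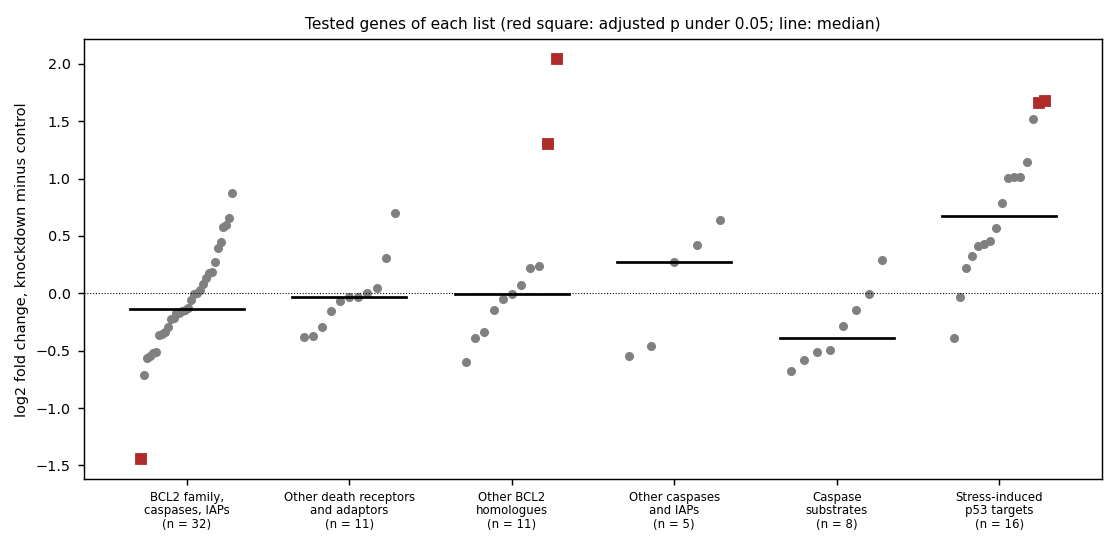
Log2 fold change (knockdown minus control) of each tested gene in the core set and the 5 surrounding lists, with the median of each list as a line and genes with an adjusted p under 0.05 as red squares. The stress-induced p53 targets have the highest median (0.68) and the caspase substrates the lowest (−0.39), and the called genes are *DIABLO*, *BNIP3*, *BNIP3L*, *CDKN1A* and *GDF15*.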

How the data were processed

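The authors deposited 1 table of gene-level TPM per library, rounded to 2 decimals, from poly-A-selected paired-end RNA–Seq, with no counts, so sequencing depth is unknown. The labels name hg38, fastp and HISAT2 2.0.5, whereas the study's methods name fastp, STAR and RSEM with a later GENCODE release. TPM of a gene cannot separate splice forms such as those of *BCL2L1*, *MCL1*, *BCL2L11* or *CFLAR*, and overlapping genes may share reads. Symbols, coordinates, GC content and 3′ UTRs were taken from GENCODE release 44 (hg38), which held all 62700 IDs.

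Genes averaging at least 1 TPM over the 6 libraries were kept, and their log2(TPM + 1) values were fitted with limma 3.58.1 (R 4.3.3, trended variance, group as the only term, two-sided), and p-values were adjusted by Benjamini-Hochberg over all 14020 genes tested. Genes with an adjusted p under 0.05 were called, and fold changes are on the log2(TPM + 1) scale, which understates changes of low genes. The procedure was tested on simulated data with noise drawn independently for each gene and library. That simulation holds no GC trend shared by genes, so it does not show how the fit behaves with the trends seen here. Values in every library are given for genes that passed, that had an unadjusted p under 0.05 or no overlap between groups, and for the most abundant gene of each class, and in other lists for called genes and the gene with the largest change. Ratios, summed levels and the remaining ranges were added after the values were seen. The members and lists were chosen with earlier results of these data known. Alternatives were a pseudocount of 0.1 or 5, a minimum mean of 5 TPM or none, median-of-ratios scaling, quantile normalization, library weights, a replicate block, removal of GC trends by loess (span 0.3), and leaving out each library.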

Additional observations from a re-analysis of the deposited data

How the results depend on the processing

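*DIABLO* was called under all 10 alternatives that kept every library (adjusted p from 0.000451 to 0.0419, limma) and in 2 of the 6 fits without 1 library. Of the 35 genes, 9 were called with library weights, 6 with the GC trend removed, 5 with the replicate block and GC trend removed together, and 0 to 2 without 1 library. Over all genes, 3218 (23%), 1242 (8.86%) and 1074 (7.66%) were called under the first 3 of these settings, 13 with no filter, and 12 to 489 without 1 library, where 489 came without control replicate 1. Of the other apoptosis genes, 21, 18, 15 and 1 were called under the same 4 settings in turn and 1 to 9 without 1 library. Library weights gave control and knockdown replicate 2 weights of 3 and 4.39 and the other libraries 0.316 to 0.948. The 146 calls over all genes split into 52 higher and 94 lower, which became 60 and 69 with median-of-ratios scaling and 78 and 83 with quantile normalization. What causes these shifts was not tested.

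Control and knockdown libraries carry the same replicate numbers. Across genes, libraries with the same number deviated from their group means with correlations of 0.41, 0.0359 and 0.279, not every library correlated best with its own number, and the numbers were therefore not taken to pair the libraries. With the replicate block, 861 genes (6.14%), 3 of the 35 genes (*DIABLO*, *CFLAR* and *TNFRSF10D*, adjusted p = 0.0467 for *CFLAR* and 0.0299 for *TNFRSF10D*, limma) and 11 of the other apoptosis genes were called.

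Of the 32 tested genes, 22 kept the sign of their log2 fold change throughout and 10 did not, none of which was called in the fit reported. With library weights the values became −0.047 for *BAX*, −0.069 for *BAK1*, −0.052 for *BOK*, −0.046 for *CASP8*, 0.0011 for *BIRC2* and 0.037 for *TNFRSF10A*. *BIRC6* was at −0.0030 with the GC trend removed, with or without the replicate block, and *TNFRSF10A* at 0.014 with median-of-ratios scaling.
Without 1 library the log2 fold change ranged from −0.48 to 0.20 for *MCL1*, from −0.10 to 0.42 for *BCL2A1*, from −0.17 to 0.39 for *BAX*, from −0.060 to 0.53 for *BAK1*, from −0.18 to 0.21 for *BOK*, from −0.49 to 0.23 for *CASP6*, from −0.16 to 0.23 for *CASP8*, from −0.32 to 0.020 for *BIRC2*, from −0.22 to 0.27 for *BIRC6*, from −0.081 to 0.12 for *TNFRSF10A*.
With no read counts, the counting error of genes near 1 TPM, such as *HRK*, *BMF*, *BIK* and *CASP10*, could not be given.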
